A study of Drosophila melanogaster with 12 samples.

Results

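The regions described here are 376 AGO2 peaks of mock-treated Kc167 cells, of 4201 in all, that were also found after LaminB knockdown and that lay in Pol II domains. Members were chosen by measured values. A mock AGO2 interval was taken where it overlapped by at least 1 bp both an AGO2 interval of the LaminB knockdown list and an interval of the mock Pol II list. Of the 4201 mock peaks, 8.95% met the rule, while 15.2% met its knockdown condition alone (638 peaks, called retained) and 63.0% its Pol II condition alone (2646 peaks). These shares describe the rule, and nothing is read from them.

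Kc167 is a Drosophila melanogaster cell line of embryonic origin, labelled female and described as tetraploid by the study. ChIP-seq, the sequencing of DNA precipitated with a protein from crosslinked chromatin, was compared between cells that received LaminB double-stranded RNA by nucleofection (dsLaminB) and cells put through the same transfection without it (mock), each collected 3 days later. AGO2 was precipitated with an antibody named Mueller from both, in 2 libraries each, and Pol II with antibody 8WG16 in 2 libraries from mock cells, beside 2 dsLaminB and 4 mock inputs. Because the authors pooled the libraries of a ChIP to call intervals, a condition had 1 list (761 AGO2 intervals for dsLaminB, 4201 for mock, and 5905 Pol II domains for mock), no replicate error exists for any value, and no test between conditions was possible. Pol II in dsLaminB cells was not analysed here. The lists give no read depth, and fewer cells with AGO2 at a site cannot be told apart from less AGO2 per cell.

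AGO2 is the Argonaute protein that carries small interfering RNAs in RNA interference. It is also found on chromatin, at promoters, enhancers and insulator sites. Pol II transcribes protein-coding genes, and in Drosophila it often pauses shortly after the transcription start site (TSS). LaminB, encoded by Lam, is a filament protein of the nuclear lamina, the meshwork under the nuclear envelope.

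Of the motifs searched under the members, the most frequent was the pentamer GAGAG, which reads as CTCTC on the other strand and is the core of the sites bound by GAGA factor, a promoter and enhancer protein that opens chromatin. The windows below reach 100 bp to each side of the mock summit of members named by their strength, their fold ratio or their domain, on the plus strand of dm6, with each match of this motif on either strand in capitals. The first set is shown because it carries the motif alone, in runs or on both strands.
Atpalpha intron, chr3R:20956996-20957196: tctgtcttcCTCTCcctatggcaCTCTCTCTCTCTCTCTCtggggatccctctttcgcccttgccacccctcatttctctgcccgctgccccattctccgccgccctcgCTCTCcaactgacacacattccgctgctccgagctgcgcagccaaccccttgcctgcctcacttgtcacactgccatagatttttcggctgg
brk upstream, chrX:7307693-7307893: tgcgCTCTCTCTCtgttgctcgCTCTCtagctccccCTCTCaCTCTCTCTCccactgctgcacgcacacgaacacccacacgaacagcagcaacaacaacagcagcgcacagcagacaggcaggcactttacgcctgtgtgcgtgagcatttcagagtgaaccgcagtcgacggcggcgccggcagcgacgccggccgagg
emc upstream, chr3L:749174-749374: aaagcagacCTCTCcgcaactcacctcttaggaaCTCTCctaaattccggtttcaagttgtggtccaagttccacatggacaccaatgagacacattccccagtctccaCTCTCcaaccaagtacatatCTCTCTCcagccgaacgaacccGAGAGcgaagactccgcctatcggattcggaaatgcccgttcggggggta
crol intron, chr2L:11806876-11807076: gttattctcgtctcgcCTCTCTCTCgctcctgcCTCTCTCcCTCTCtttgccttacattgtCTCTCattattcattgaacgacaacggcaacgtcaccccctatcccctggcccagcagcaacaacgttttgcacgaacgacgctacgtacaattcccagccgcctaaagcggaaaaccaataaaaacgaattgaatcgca
mld intron, chr3R:24586567-24586767: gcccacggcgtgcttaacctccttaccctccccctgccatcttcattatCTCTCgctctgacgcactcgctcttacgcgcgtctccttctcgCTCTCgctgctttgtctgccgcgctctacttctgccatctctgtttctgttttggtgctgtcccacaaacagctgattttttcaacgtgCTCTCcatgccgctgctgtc
Tob upstream, chrX:16091510-16091710: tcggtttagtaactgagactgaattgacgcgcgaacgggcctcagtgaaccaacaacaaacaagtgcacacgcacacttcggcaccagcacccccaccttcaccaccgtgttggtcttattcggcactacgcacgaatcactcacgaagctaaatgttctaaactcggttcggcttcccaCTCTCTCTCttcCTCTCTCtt
pnt intron, chr3R:23314406-23314606: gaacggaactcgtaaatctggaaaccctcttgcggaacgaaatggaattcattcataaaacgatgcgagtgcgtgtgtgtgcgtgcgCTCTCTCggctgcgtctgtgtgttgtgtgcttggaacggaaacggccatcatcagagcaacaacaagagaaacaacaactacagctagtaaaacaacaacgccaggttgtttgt
tara promoter, chr3R:16242591-16242791: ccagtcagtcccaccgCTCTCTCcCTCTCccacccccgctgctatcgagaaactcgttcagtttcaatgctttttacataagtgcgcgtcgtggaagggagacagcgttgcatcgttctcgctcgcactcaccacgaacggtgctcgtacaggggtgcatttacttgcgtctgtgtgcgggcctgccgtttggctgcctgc

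The second set is shown because members without any match in this window also occurred. It holds an intron of tara and an intron of alpha-Man-Ia, with a CA repeat near the summit, and the coding sequence of Lam and bif.
tara intron, chr3R:16236422-16236622: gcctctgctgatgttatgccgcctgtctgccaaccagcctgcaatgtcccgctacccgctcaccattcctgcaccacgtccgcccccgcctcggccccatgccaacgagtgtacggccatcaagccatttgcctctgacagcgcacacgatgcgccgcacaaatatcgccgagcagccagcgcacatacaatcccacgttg
alpha-Man-Ia intron, chrX:10290713-10290913: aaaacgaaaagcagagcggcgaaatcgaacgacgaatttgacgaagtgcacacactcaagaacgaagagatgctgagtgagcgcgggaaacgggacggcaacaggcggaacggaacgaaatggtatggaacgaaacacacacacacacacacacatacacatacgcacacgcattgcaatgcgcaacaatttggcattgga
Lam coding, chr2L:5544428-5544628: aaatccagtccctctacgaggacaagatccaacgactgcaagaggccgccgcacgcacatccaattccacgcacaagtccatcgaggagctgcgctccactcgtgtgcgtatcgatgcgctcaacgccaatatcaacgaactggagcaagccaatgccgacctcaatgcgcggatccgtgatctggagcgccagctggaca
bif coding, chrX:11683507-11683707: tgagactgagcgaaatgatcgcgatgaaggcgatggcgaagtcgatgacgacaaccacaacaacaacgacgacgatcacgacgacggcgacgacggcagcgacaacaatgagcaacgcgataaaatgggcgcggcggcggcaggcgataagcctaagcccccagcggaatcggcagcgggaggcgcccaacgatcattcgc

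GAGAG lay within 100 bp of the summit in 268 of the 376 members (71.3%, 95% Wilson interval 66.5 to 75.6%). The same share was 69.1% (63.2 to 74.4%) of the 262 retained peaks outside Pol II domains, 34.5% (32.6 to 36.5%) of the 2270 peaks inside Pol II domains found in mock only, and 39.9% (38.5 to 41.4%) of all 4201 mock peaks. The interval of the members overlapped that of the other retained peaks, and did not overlap that of the mock-only peaks in the same kind of domain. These intervals cover only counting error, and peaks close to each other may not be independent. As genomic background, GAGAG was in 21.6% of windows of the same length (201 bp) tiled over the 7 chromosomes, in 24.3% of windows centred on annotated TSSs and in 26.9% of windows centred on Pol II domains. A match is a description of the sequence, and binding of GAGA factor was not measured.

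Matches were repeated in many members. At least 3 matches, overlapping ones counted separately, lay within 100 bp of the summit in 33.5% of members (28.9 to 38.4%), in 41.2% of retained peaks outside Pol II domains (35.4 to 47.3%) and in 9.30% of mock-only peaks inside them (8.17 to 10.6%). The member at the TSS of ush, which encodes a cofactor of GATA factors in blood cells, had 19, the highest number. Members at Pde8 and Tlk and one nearest to the TSS of sog had 16 each, and spin had 14. Of the members with the highest AGO2 values, CHES-1-like (a forkhead factor gene) had 11 and Atpalpha (the alpha subunit of the sodium pump) had 9. The others of the 10 strongest in each list had fewer. There were 8 at brk, 5 at Tob, 4 at Psc, 3 each at the TSS of tara and mld, and 2 each at Pits, pnt and zfh2. Both members at w and the one at srp had 1 each, and Lam, AGO2 and alpha-Man-Ia had 0. Along the peak, members had up to 0.303 matches per peak and 20 bp, at 60 to 80 bp left of the summit, and mock-only peaks inside Pol II domains had up to 0.0907.

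**Figure D1:**
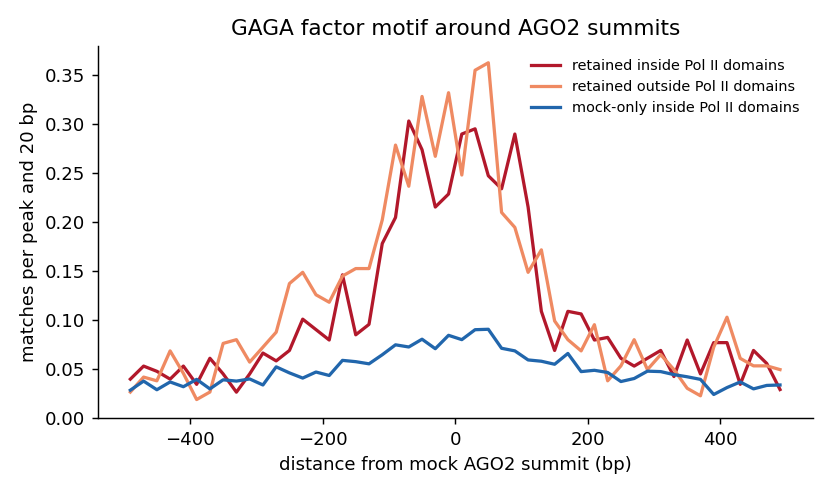
GAGA factor motif matches per peak and 20 bp bin (y axis) against distance from the mock AGO2 summit in bp (x axis), for the 376 retained peaks inside Pol II domains, the 262 retained peaks outside them and the 2270 mock-only peaks inside them. Both retained classes have a broad rise within about 100 bp of the summit, up to 0.303 and 0.363 matches, while the mock-only peaks reach 0.0907.

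Members had a higher mock −log10 p than mock-only peaks inside Pol II domains (medians of 37.7 and 21.2), a value bound up with the rule, so the shares were also given within 4 groups of near-equal size by the mock −log10 p of all 4201 peaks. From the weakest to the strongest group, GAGAG lay near the summit in 58.8%, 78.4%, 63.4% and 73.3% of members (17, 37, 71 and 251 peaks). It lay near the summit in 29.9%, 28.0%, 36.5% and 46.2% of the mock-only peaks inside Pol II domains. The members had the higher share in each group, with Wilson intervals that did not overlap (in the weakest, 36.0 to 78.4% against 26.2 to 33.9%). The groups match the mock value only, and only loosely. The strongest ran from 29.4 to 194.5 in members and from 29.4 to 119.5 in mock-only peaks inside Pol II domains. Among all mock peaks the GAGAG share was 30.5% in the weakest group and 56.3% in the strongest. Shares within the strongest group were therefore not matched in strength. All 17 members of the weakest group (15.5 to 17.7) lay below 19.8, the lowest −log10 p in the dsLaminB list. The rest of the 41 members below that value were in the second group. The rule took these members only where dsLaminB was higher, so they were not matched in strength to mock-only peaks. The share among members was also similar with and without a TSS under the interval, at 72.9% of 240 and 68.4% of 136. For mock-only peaks inside Pol II domains these were 38.8% of 1164 and 30.0% of 1106.

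**Figure D2:**
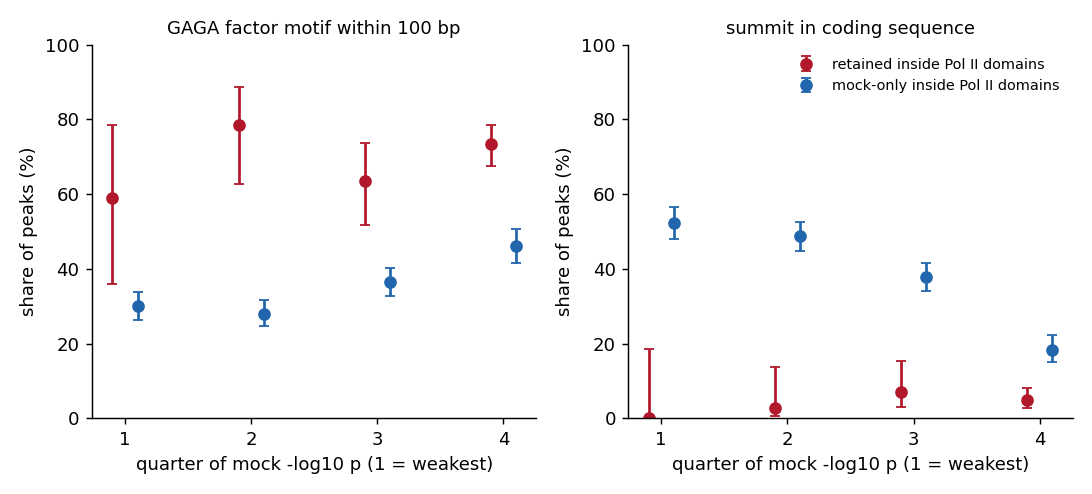
Shares of peaks in percent (y axes) with GAGA factor motif within 100 bp of the summit (left) and with the summit in coding sequence (right), by group of mock −log10 p from weakest to strongest (x axes). Points are shares and bars 95% Wilson intervals, members in red and mock-only peaks inside Pol II domains in blue. Members lie higher on the left and lower on the right in all 4 groups (73.3% against 46.2% and 4.78% against 18.4% in the strongest). The groups match the mock value only, and only loosely (the strongest reaches 194.5 in members and 119.5 in mock-only peaks). All members of the weakest group lie below the lowest dsLaminB value.

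Of the other 9 motifs searched on both strands the CA repeat stood furthest above the tiled windows. These motifs were CGATA of BEAF-32, TATCGATA of the DNA replication element DRE, which contains the BEAF-32 motif, the repeat CACACACA itself, TGCATA from the Su(Hw) site, GCCAT of Pho, CAGGTAG of Zelda, GGTCACAC of M1BP, the TATA box sequence TATAAA, and the E box CANNTG. CACACACA was near the summit in 23.7% of members (19.7 to 28.2%), 28.6% of retained peaks outside Pol II domains (23.5 to 34.4%), 11.6% of mock-only peaks inside them (10.4 to 13.0%) and 4.02% of tiled windows. Within the 4 groups by mock −log10 p, however, the intervals of members and mock-only peaks inside Pol II domains overlapped in each (25.5%, 20.5 to 31.2%, and 17.9%, 14.7 to 21.7%, in the strongest, and 11.8%, 3.29 to 34.3%, and 9.17%, 7.03 to 11.9%, in the weakest). CGATA was in 22.9% of members, against 21.5% of tiled windows, and CANNTG in 62.0%, against 62.9%. The sequence TATAAA was in 5.59% of members and 4.19% of all mock peaks, against 21.8% of tiled windows. The GC content within 100 bp of the summit had a median of 52.7% in members, 52.2% in retained peaks outside Pol II domains, 54.7% in mock-only peaks inside them and 42.3% in tiled windows.

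Core promoter motifs were counted around the TSS nearest to the summit in the 240 members that covered one, without a split by mock −log10 p. DRE, a motif of housekeeping promoters, lay within 100 bp of 2.08% of these TSSs (0.893 to 4.78%), of 6.87% of the TSSs under mock-only peaks inside Pol II domains (5.56 to 8.47%) and of 11.5% of all annotated TSSs inside Pol II domains (10.9 to 12.2%). GGTCACAC, bound by M1BP at housekeeping promoters, was at 3.75% (1.99 to 6.97%), 9.54% (7.98 to 11.4%) and 11.4% (10.7 to 12.1%) of the same 3 sets. GAGAG went the other way, at 59.2% (52.9 to 65.2%), 36.7% (34.0 to 39.5%) and 27.0% (26.0 to 27.9%). TATAAA was at 8.33% (5.46 to 12.5%), 10.4% (8.77 to 12.3%) and 20.9% (20.0 to 21.8%).

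Summits of members were rarely in coding sequence. Annotation was counted apart from distance to a TSS, so an intronic summit can lie just upstream of one, as at brk (146 bp). The summit fell in an intron in 165 members (43.9%, 39.0 to 48.9%), in a 5′ UTR in 104 (27.7%), between genes in 67 (17.8%), in a noncoding exon in 21 (5.59%), in coding sequence in 18 (4.79%, 3.05 to 7.44%) and in a 3′ UTR in 1. Coding sequence lay under the summit of 3.05% of retained peaks outside Pol II domains (1.56 to 5.91%), but of 40.3% of mock-only peaks inside them (38.3 to 42.3%) and 35.7% of all mock peaks. In the strongest of the 4 groups by −log10 p, the coding share was 4.78% of members (2.76 to 8.17%) and 18.4% of mock-only peaks inside Pol II domains (15.1 to 22.2%). Strength was not matched within this group. The 18 coding members included Lam, AGO2, the coding end of w, puc, which encodes the phosphatase that limits JNK signalling, and LanA, a laminin chain. GAGAG was near 9 of these 18 summits. Of the 165 intronic summits, 120 (72.7%) lay in the first intron of a transcript, near the 70.7% of the 1167 intronic summits of all mock peaks. The share was 68.0% of the 169 in retained peaks outside Pol II domains and 80.4% of the 424 in mock-only peaks inside them.

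**Figure D3:**
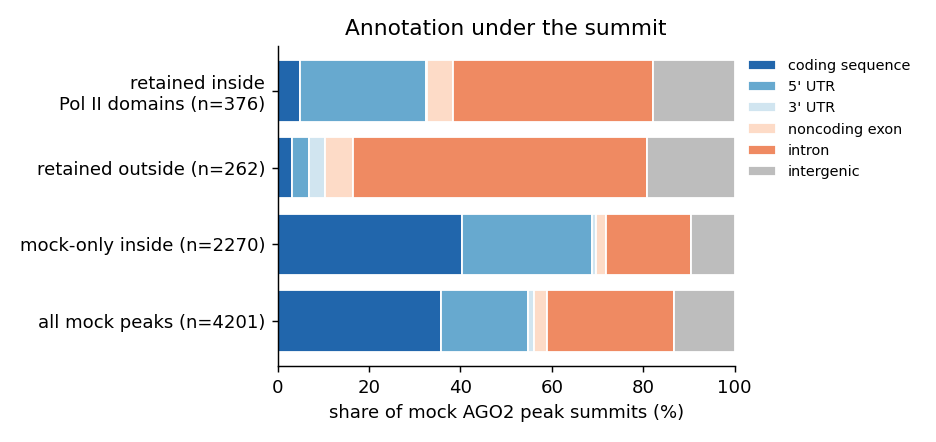
Share of mock AGO2 summits in percent (x axis) by the annotation under the summit, for retained peaks inside Pol II domains, retained peaks outside them, mock-only peaks inside them and all mock peaks. The coding part is 4.79% and 3.05% in the retained classes and 40.3% in mock-only peaks inside Pol II domains, and the 5′ UTR part is 27.7%, 3.82% and 28.5%.

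A TSS lay under 240 of the 376 members (63.8%, 58.9 to 68.5%), under 10.3% of retained peaks outside Pol II domains (7.18 to 14.6%), under 51.3% of mock-only peaks inside them (49.2 to 53.3%) and under 36.7% of all mock peaks. The order of members and mock-only peaks inside Pol II domains depended on the reach: with TSSs widened by 500 bp the shares were 80.1% and 90.4%, and in the strongest of the 4 groups the exact-position shares were 70.1% and 72.0%. The TSSs under members belonged to 252 genes, of which 228 were protein-coding, 23 were noncoding RNA genes and 1 was a pseudogene. TSSs on both strands were covered in 7 of the 240 members (2.92%, 1.42 to 5.90%), against 123 of 1164 mock-only peaks inside Pol II domains (10.6%, 8.93 to 12.5%). Outside the domains these shares were 3.70% of 27 retained and 0.909% of 110 mock-only peaks over a TSS. No correction for width was made, and all members had a median width of 445.5 bp, against 581 bp for all mock-only peaks inside Pol II domains.

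The side of the TSS differed between members and mock-only peaks inside Pol II domains. Summits of members lay 1 to 150 bp upstream of the nearest TSS in 33.8% (29.2 to 38.7%) and 1 to 400 bp downstream in 29.0% (24.6 to 33.8%). For mock-only peaks inside Pol II domains the upstream share was 16.2% (14.8 to 17.8%) and the downstream share 54.1% (52.0 to 56.1%). Among peaks over a TSS, the median signed distance was −31 bp in members (upstream, interval −53 to −13 bp). It was 47 bp in mock-only peaks inside Pol II domains (downstream, 34 to 60 bp). Outside the domains it was also upstream, at −18 bp in 27 retained peaks (−106 to 52 bp) and −59.5 bp in 110 mock-only peaks (−104 to 4 bp). An upstream median was therefore not particular to members. The interval of the 27 retained peaks also overlapped that of mock-only peaks inside the domains. In the strongest of the 4 groups, not matched in strength within its range, the upstream shares were 34.7% of members and 25.2% of mock-only peaks (29.0 to 40.7% and 21.4 to 29.3%, which just overlap). The downstream shares there were 30.3% and 46.0% (24.9 to 36.2% and 41.4 to 50.5%). These distances were chosen after the profile was seen. At the other end, 36 members (9.57%) lay over 2000 bp from any TSS, against 20.3% of all mock peaks. The share was 3.79% of mock-only peaks inside Pol II domains and 49.2% of retained peaks outside them.

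**Figure D4:**
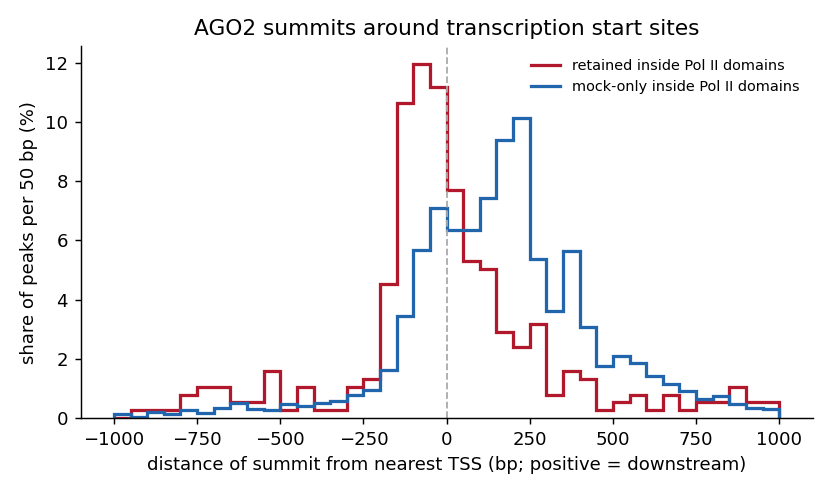
Share of peaks in percent per 50 bp (y axis) by the signed distance of the summit from the nearest TSS in bp (x axis, positive downstream), for retained and mock-only AGO2 peaks inside Pol II domains. Within 150 bp upstream of the TSS lie 33.8% of members and 16.2% of mock-only peaks. Within 400 bp downstream lie 29.0% and 54.1%. These distances were chosen after the profile was seen.

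Each member overlapped exactly 1 Pol II domain, and the 376 members lay in 355 of the 5905 domains. Of these, 336 held 1 member, 18 held 2 and 1 held 4, and 56 also held a mock-only AGO2 peak. The summit was inside the domain in 347 members, 159 members were wholly inside it and 32 enclosed it. These domains had a median width of 794 bp, against 901 bp for those with mock-only peaks and 642 bp for all Pol II domains. A TSS lay in 85.6% of the member domains and in 85.7% of all domains. Of the 136 members over no TSS, 79 were in a domain that did cover one. The members were spread over chromosomes 2L (48), 2R (74), 3L (61), 3R (102), 4 (2) and X (89). The X held 23.7% of members (19.7 to 28.2%) and 22.0% of all mock peaks.

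The domain with 4 members was chr3R:16234159-16237843 (3685 bp), in an intron of tara, which encodes a protein linked to trithorax group function, sleep and cell division. Its members, from left to right, had a −log10 p of 29.2, 24.7, 46.1 and 49.2 in the dsLaminB list, against 48.0, 63.0, 89.9 and 67.2 in the mock list. None of the 4 summit windows held GAGAG. The nearest annotated TSS, also of tara, was between 5674 and 8206 bp away. In all, 6 members lay at tara, beside 7 mock-only peaks inside Pol II domains. The widest domain with 2 members was chrX:5899347-5904621 (5275 bp), at Act5C, a cytoplasmic actin gene, with a member 81 bp upstream of one of its TSSs and another in the neighbouring noncoding RNA gene lncRNA:CR45668. The next was chr2L:11806695-11809515 (2821 bp) at crol, an ecdysone-regulated zinc finger gene, where the member windows held 7 and 2 matches of GAGAG.

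The AGO2 values of the members are given as a description, since the rule used both lists. Members had a median −log10 p of 27.2 in the dsLaminB list (19.8 to 175.5), against 37.7 in the mock list (15.5 to 194.5). Their fold enrichment over input had a median of 3.42 in dsLaminB, against 3.84 in mock. The ratio of dsLaminB to mock fold enrichment per member had a median of 0.912 (quartiles 0.709 and 1.13), with 149 members above 1 and 227 below. By −log10 p, 271 members (72.1%) had the lower value in dsLaminB and 105 the higher. No dsLaminB peak was listed below 19.8, so the 41 members with a lower mock value than this could only be higher in dsLaminB. For the retained peaks outside Pol II domains the median ratio was 0.988. Both values depend on depth and on input, so a ratio below 1 is not a measure of lost binding. The nearest dsLaminB summit lay a median of 21 bp from the mock summit, within 50 bp in 299 members and over 200 bp away in 8. Of the 377 dsLaminB peaks met by members, 372 themselves met a mock Pol II domain.

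**Figure D5:**
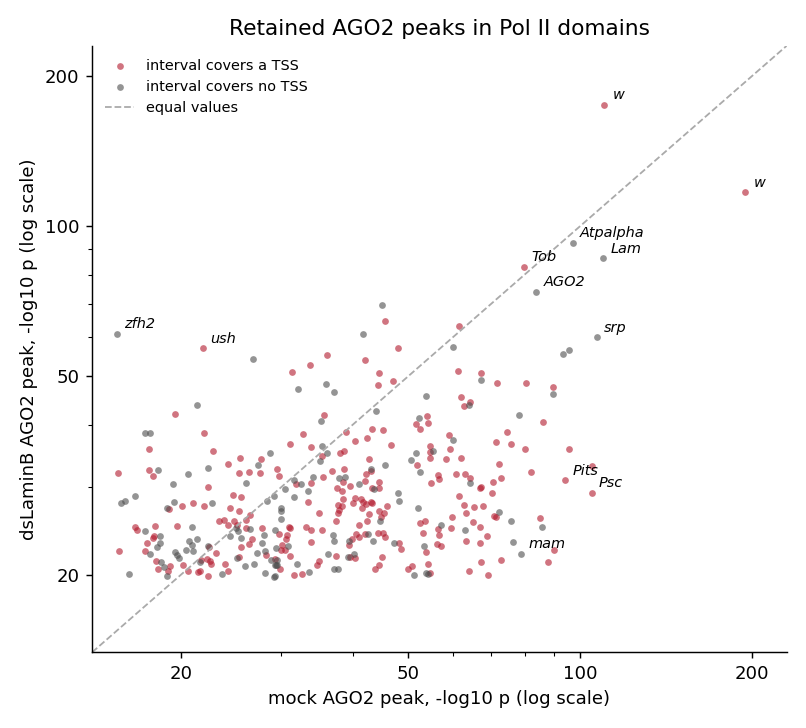
The −log10 p of the strongest overlapping dsLaminB AGO2 peak (y axis, log scale) against that of the mock AGO2 peak (x axis, log scale) for the 376 members, with members over a TSS in red, the others in grey and a dashed line of equal values. Both peaks at w stand apart at the top (175.5 and 117.2 in dsLaminB), and zfh2 and ush lie far above the line.

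The members with the highest values lay at w, which encodes an eye pigment transporter. The member over its TSS (chrX:2795930-2796828) had a −log10 p of 175.5 in dsLaminB and 110.1 in mock, with folds of 9.26 and 6.68. The member over its other exons (chrX:2789853-2793308, at 3456 bp the widest) had 117.2 in dsLaminB and 194.5 in mock, with folds of 4.77 and 10.4. The dsLaminB peaks and the mock peaks at w each covered 100% of the 2352 exonic bp, and 27.1% and 25.5% of the 3516 intronic bp. This pattern of cover over exons was not tested further. Of the 10 strongest mock members, these and Atpalpha (an intron, chr3R:20956843-20957277) and Lam were also among the 10 strongest in dsLaminB. Atpalpha had 92.7 in dsLaminB and 97.3 in mock.

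The knockdown target itself was a member. At Lam (chr2L:5543201-5545593, 2393 bp, summit in coding sequence), the −log10 p was 86.3 in dsLaminB, for the stronger of 2 overlapping peaks, and 109.8 in mock, and only 352 bp of the interval lay in a Pol II domain. At AGO2 (chr3L:15554158-15554587), the gene of the precipitated protein, it was 74.0 in dsLaminB and 83.8 in mock. As at w, the peaks of each list covered 100% of the coding sequence of Lam (1866 bp). Unlike at w, they covered only 54.3% of its 3737 exonic bp in dsLaminB and 55.8% in mock. They covered 49.1% of its 426 intronic bp in dsLaminB and 72.3% in mock. At AGO2 they covered 6.11% of the 3667 coding bp in each list. This cover was not tested further. Leaving out the 4 members with summits in w, Lam or AGO2 left the shares at 71.5% for GAGAG and 4.03% for coding summits.

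The other strong mock members were at regulators. The member in the 5′ UTR of srp (chr3R:15993071-15993497), the GATA factor of blood cells, had a −log10 p of 60.0 in dsLaminB and 107.1 in mock. At Psc (chr2R:12980200-12981275), a Polycomb repressive complex gene, the values were 29.3 and 104.9, and at the TSS of tara (chr3R:16242220-16243271) 33.1 and 105.1. The member 146 bp upstream of brk (chrX:7307382-7307996), the repressor of Dpp target genes, had 35.7 in dsLaminB and 95.8 in mock, and Pits (chrX:12582840-12583281) had 31.0 and 94.1. In an intron of mld (chr3R:24586458-24586916), a zinc finger gene of ecdysone synthesis, they were 56.5 and 95.8.

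The other strong dsLaminB members were not among the 10 strongest in mock. Tob (chrX:16091338-16091779), an antiproliferative gene, had a −log10 p of 82.9 in dsLaminB and 80.0 in mock. The intron of alpha-Man-Ia (chrX:10290660-10290962), an N-glycan mannosidase gene, had 69.5 and 45.0, and the TSS of pnt (chr3R:23314289-23314687), the ETS factor of Ras signalling, had 64.7 and 45.6. CHES-1-like (chrX:7696612-7696914) had 63.2 and 61.5. An intron of zfh2 (chr4:502647-503093), a homeodomain and zinc finger gene, ranked 19 of 761 in dsLaminB (60.9) and 4178 of 4201 in mock (15.5, one of the 41 values below the lowest in dsLaminB).

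The highest ratio of dsLaminB to mock fold enrichment was 2.82 at zfh2, with folds of 6.63 in dsLaminB and 2.35 in mock. It was followed by the TSS of emc, an inhibitor of bHLH factors (chr3L:749126-750233, 1.92), introns of shakB, an innexin (chrX:20793973-20794220, 1.82), and Zdhhc8, a palmitoyltransferase (chrX:9355777-9356198, 1.79), and the TSS of ush (chr2L:490572-491081, 1.78). At emc, as at zfh2, the mock −log10 p (19.6) was below the lowest in dsLaminB (19.8). The lowest ratio was 0.373 in an intron of mam, the Notch coactivator (chr2R:14006744-14007271), with folds of 2.45 in dsLaminB and 6.56 in mock. Psc had 0.379, osa, a SWI/SNF subunit (chr3R:17700706-17702337), 0.388, Pits 0.402 and Cbl, a ubiquitin ligase of EGFR signalling (chr3L:8424953-8425507), 0.404. After w and Lam, the widest members were at bif, a cytoskeletal gene (chrX:11681852-11684317, 2466 bp), Hex-A, a hexokinase (chrX:9585556-9587547, 1992 bp), and mbt, a PAK kinase (chrX:16610594-16612354, 1761 bp). At bif the dsLaminB summit lay 1587 bp from the mock summit, the longest shift among the members.

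Gene lists chosen with earlier results known were counted by genes that any member overlapped, beside the 333 of 13968 protein-coding genes (2.38%) that did so. No length correction was made, and the genes overlapped by members were long, with a median of 14539 bp against 2164.5 bp for all protein-coding genes and 3733 bp for genes overlapped by mock-only peaks inside Pol II domains. In the Polycomb and Trithorax list 8 of 23 genes had a member, and the ecdysone list had 7 of 21. There were 8 of 30 in signalling and its feedback and 6 of 27 in hemocyte identity (pnt is in both), and 4 of 21 in the actin cytoskeleton. There was 1 gene each in the small RNA pathway (AGO2, of 18), the nuclear lamina and inner membrane (Lam, of 12), Pol II transcription and pausing (Trf2, of 28) and insulator proteins (mod(mdg4), of 13), and none of 20 heat shock genes. The other classes also met these lists. Retained peaks outside Pol II domains overlapped 9 of the 21 ecdysone genes, 6 signalling genes, 2 hemocyte genes and 1 Polycomb and Trithorax gene (1.12% of all protein-coding genes). Mock-only peaks inside Pol II domains overlapped 13 ecdysone, 14 signalling, 8 hemocyte, 8 Polycomb and Trithorax, 9 actin and 5 heat shock genes (15.8% of all protein-coding genes).

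In the Polycomb and Trithorax list, members lay at Psc, Su(z)2, ph-p, ph-d, Trl, psq, osa and trx. The psq gene, which encodes a BTB protein that also binds GA-rich sequence, had a −log10 p of 48.6 in dsLaminB and 80.6 in mock at its TSS (chr2R:10568530-10569306). Su(z)2, next to Psc and related to it (chr2R:12996204-12997697), had 30.8 and 70.5. Of the Polyhomeotic pair, ph-p (chrX:2136553-2137318) had 30.6 and 54.9 and ph-d (chrX:2123257-2123803) 21.5 and 22.2. Trl, which encodes GAGA factor itself, held 3 members, all in introns. The strongest (chr3L:14756285-14756684) had 45.7 in dsLaminB and 53.8 in mock, with 9 matches of GAGAG near its summit.

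The ecdysone genes, the steroid response that Kc cells are used to study, had members at Eip74EF, Eip75B, Eip78C, Hr39, ftz-f1, ImpL2 and kay. ImpL2, a secreted binder of insulin-like peptides, had a −log10 p of 23.1 in dsLaminB and 56.2 in mock (chr3L:4226656-4227603). The nuclear receptor gene ftz-f1 held 3 members, at 39.2, 34.1 and 31.3 in dsLaminB and 43.2, 42.8 and 37.9 in mock. Another nuclear receptor gene, Eip75B, held 2, at 36.3 and 36.1 in dsLaminB and 35.3 and 33.8 in mock. Eip74EF, an ETS factor gene, had 27.9 in dsLaminB and 21.1 in mock.

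Among hemocyte and signalling genes, members lay at srp, ush, pnt, zfh1 and the laminin genes LanA and LanB1, and at puc, InR, foxo, ptc, fz2, wg and Mkp3. The zinc finger factor gene zfh1 had a −log10 p of 35.8 in dsLaminB and 80.1 in mock at its TSS (chr3R:30765462-30766482), and puc had 57.2 and 60.0 (chr3R:8105778-8106318). The Wnt ligand gene wg had 24.3 and 45.2 (chr2L:7306789-7307219), and ptc, the Hedgehog receptor gene, 22.2 and 53.8 (chr2R:8649366-8649992). The 2 members at InR, the insulin receptor gene, had 35.8 and 27.9 in dsLaminB and 17.6 and 15.7 in mock, where the rule fixed the direction. Of the 5 members at pnt, 2 likewise had mock values (17.3 and 17.7) below the lowest dsLaminB value, and both met the same dsLaminB peak (38.6). In the actin list, the spectraplakin gene shot had 43.6 in dsLaminB and 62.6 in mock, Act5C 34.3 and 54.8, Moe, which links actin to the membrane, 22.5 and 48.7, and the GTPase gene Rho1 19.9 and 29.3.

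At the edge of the rule, the shortest overlap of a member with a dsLaminB peak was 205 bp, in an intron of CG33080, and covered the whole member. The next were 215 bp at PGRP-LF, 227 bp at CG11883, 228 bp at Cbl and 233 bp at fbp. On the other side, mock peaks in Pol II domains missed the nearest dsLaminB peak by 18 bp at Sesn, 96 bp at rudhira, 143 bp at MFS14, 150 bp at zfh2 and 162 bp at tara. The shortest overlaps with a Pol II domain were 91 bp at Ssdp, 114 bp at hth, 117 bp at Eip75B, 120 bp at spin and 131 bp at Ppa. Retained peaks missed a domain by 16 bp at pico, 51 bp at Mnt, 69 bp at REPTOR, 110 bp at pros and 141 bp at Ptpmeg2.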

How the data were processed

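Per the labels, the authors used cutadapt 1.10 to trim reads and Bowtie2 2.2.8 to place them on dm6, filtered with SAMtools 1.3.1 and Picard 2.5.0 and called peaks with MACS2 2.1.1.20160309 on pooled libraries, keeping as many AGO2 peaks as an irreproducibility test between pseudoreplicates allowed. List length therefore depends on depth, which is unknown. The deposited AGO2 lists give a fold enrichment over input (a ratio), the −log10 of the p-value, and a score and a q-value, which were not used. The Pol II list gives positions. Number of per-sample columns left unused: 0.

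Overlaps of at least 1 bp, TSSs and summit annotation (coding sequence over UTRs, UTRs over noncoding exons, exons over introns) used Ensembl 115 (build 6.54). Sequences are from RefSeq, on the same assembly (dm6). Motifs were searched on both strands within 100 bp of the summit. Python 3.11.15 with numpy 2.4.6 and scipy 1.17.1 was used, and overlap, annotation and motif code was tested on simulated data. Members, motifs and gene lists were chosen with earlier results of these data known. Named members were the 10 strongest in each list, the 5 widest, the 5 highest and lowest fold ratios, the 5 shortest overlaps, the 3 domains with most members and members at listed genes. Further genes (those with 14 or more matches, or 3 or more members) were chosen after their values were seen. Of 216 listed symbols, 213 matched 1 gene. Without replicates no test was run.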

Additional observations from a re-analysis of the deposited data

How the results depend on the processing

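The 9 results were recomputed under 59 other settings listed at the start and 2 chosen after seeing the data. In 51 the value stayed within 1.5 times (the number of members) or within its 95% interval. In the stronger 50% of each AGO2 list there were 187 members, of which 70.1% covered a TSS, and the median GC content was 53.7%. With summits plus and minus 100 bp the TSS share was 37.5%, and with TSSs widened by 500 bp 80.1%. GAGAG was in 46.3% of members within 50 bp of the summit and in 86.4% of whole peaks, against 20.8% and 63.5% of mock-only peaks inside Pol II domains. The GC content of whole peaks was 49.6%. The fold ratio was 0.864 for mock peaks at or above the lowest dsLaminB −log10 p, and 0.771 with −log10 p in place of fold. By construction, each of these settings uses a shorter or longer stretch, a wider TSS, fewer peaks or another measure. No paired analysis was possible because the authors pooled the replicates of each condition before calling, which also meant that leaving out a replicate was not possible. Depth, replicate spread and Pol II after knockdown limit all statements.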
